A study of Saccharomyces cerevisiae with 32 samples.

Results

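Ribonucleotide reductase, the enzyme that makes the deoxyribonucleotides for DNA synthesis, was followed in budding yeast through its 4 subunit genes (RNR1, RNR2, RNR3 and RNR4) and 4 genes that control it (SML1, DIF1, DUN1 and RFX1). The 8 genes were chosen by name and by no rule on measured values, though earlier results of these data were known. They came from the 6205 genes that could be tested of 6225 systematic gene names on the array. All 8 had a probe, and all 8 were tested.

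RNA from synchronised Saccharomyces cerevisiae cultures was compared on 32 Agilent arrays with RNA of the untagged strain MW836a in mid-log growth, the common reference in the other channel. The control strain YBL320, called WT by the submitters, carried the tagged alleles HCM1-3HA, TOS4-3FLAG, YOX1-3V5 and YHP1-13MYC, and the phosphomutant strain YBL289, called 4P, carried hcm1-15A-3HA and tos4-9A-3FLAG together with yox1-9A-3V5 and yhp1-13A-13MYC. Both strains were arrested for 2 h in G1 by alpha-factor, a mating pheromone, then released and sampled at 0, 15, 30, 45, 60, 75, 90 and 105 min in 2 time courses each, the second hybridised with the dyes swapped. The series title places the question at Cdk1, the cyclin-dependent kinase that drives the cycle, and its control of S-phase transcription factors: Hcm1 is a forkhead activator, Yox1 and Yhp1 are homeodomain repressors, and Tos4 is a forkhead-associated-domain protein. Each genotype is given as a single strain, so strain and genotype are the same thing here, and both strains differ from the reference by their tags.

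In yeast the reductase is built of a large subunit, which holds the catalytic and regulatory sites, and a small subunit, which carries the iron cofactor and the radical. Supply of its product is matched to S phase and to DNA damage at several levels: transcription of RNR1 is driven at the G1/S boundary by the factor MBF, Sml1 binds and inhibits Rnr1, Dif1 promotes the import of Rnr2 and Rnr4 into the nucleus, away from Rnr1, and the repressor Rfx1, also called Crt1, holds down the damage-inducible RNR genes. The kinase Dun1, which acts after Mec1 and Rad53 in the checkpoint pathway, phosphorylates Sml1, Dif1 and Rfx1 and so lifts these restraints.

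All values below are log2 ratios of synchronised sample over reference, after background correction and loess within each array, and a value of 0 is the level in the mid-log reference. A ratio of this kind shows changes of 1 gene over time and between strains and gives no order of abundance among genes. The labels do not state how the cultures of the 2 replicates were set up. Unless stated otherwise, p-values rest on the spread between the 2 arrays of a group, pooled over the groups. Those 2 arrays differ in time course, dye orientation and slide. Every member was well above background in both channels on all 32 arrays with no saturated spot, and 2 values were missing because their spots were marked as outliers by the scanner: RNR2 and SML1 in 4P at 105 min, replicate 1. RNR3 and RFX1 were the dimmest members, with a median sample signal of 7.28 and 9.47 times the local background. Across arrays 94.8 to 99.6% of probes were well above background. Quality was poorest for 4P at 15 and 105 min in replicate 1, both on slide 1. Their duplicate spots correlated at r = 0.81 and 0.53, against a median of 0.97 over all arrays. They had 526 and 1761 outlier-marked spots, against a median of 9. The highest RNR4 and DIF1 ratios, 1.78 and 1.18, came from the 105 min array, where the 2 RNR1 spots read -1.26 and 0.06. The a-cell markers STE2, MFA1, MFA2, BAR1 and AGA2 were highest at 0 min in both strains, the time of the alpha-factor arrest, and of the 4 alpha-cell markers MF(ALPHA)1 was well above background on 13 arrays and STE3, MF(ALPHA)2 and SAG1 on all 32. STE3, the a-factor receptor gene, was lower in 4P at 0 min (-0.97, adjusted p = 0.0436 in limma). MFA2 was lower in 4P at 60 min (-1.35, adjusted p = 0.00569) and BAR1 was higher at 75 min (0.89, adjusted p = 0.0390). STE2, MFA2, BAR1, STE3 and SAG1 were called between the strains over all times together (limma moderated F), against 5.04% of all genes. The part of these differences in the results below was not tested.

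Over the 8 times, 5 of the 8 genes changed in WT and the same number in 4P (moderated F test in limma, Benjamini-Hochberg adjusted over all 6205 genes, threshold 0.05). The share of all genes called by this test was 35.6% in WT and 40.4% in 4P, so a call of change over time was common. The called genes were RNR1, RNR3, SML1, DIF1 and DUN1 in each strain. RNR2, RNR4 and RFX1 did not pass in either.

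RNR1, the large subunit made in undisturbed cells, had the widest swing of the members. In WT its ratios at 0, 15, 30, 45, 60, 75, 90 and 105 min were -0.20, 2.19, 1.28, -0.61, -1.32, 2.14, 0.43 and -0.66 in replicate 1. In replicate 2 they were -0.47, 1.53, 1.16, -1.53, -1.24, 1.76, 0.36 and -1.48. Both WT courses were high at 15 and 30 min, fell below the reference at 45 and 60 min, and were high again at 75 min. In 4P the ratios at the same times were -0.22, 2.01, 0.84, -1.72, -1.70, 1.09, 1.47 and -0.60 in replicate 1. In 4P replicate 2 they were -0.44, 1.17, 0.37, -1.71, -1.58, 0.94, 0.45 and -1.10. The 4P courses rose and fell at the same early times, and they differed from each other in the second cycle, where replicate 1 was highest at 90 min and replicate 2 at 75 min.

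From 0 to 15 min RNR1 rose 4.58-fold in WT (2.20 ± 0.34, standard error, adjusted p = 5.50e-05 in limma) and 3.79-fold in 4P (1.92 ± 0.34, adjusted p = 0.000262). From 60 to 75 min it rose 9.39-fold in WT (adjusted p = 8.00e-07) and 6.28-fold in 4P (adjusted p = 7.36e-06). The fall from 30 to 45 min was called in both strains, at -2.29 in WT and -2.32 in 4P. The range over the 8 group means, 3.23 in WT and 3.31 in 4P, was larger than that of 98.8% and 99.0% of the genes tested. The test over time gave adjusted p = 2.04e-08 in WT and 5.61e-08 in 4P.

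RNR3 encodes the second large subunit, which is known for its strong induction by DNA damage and its low level without damage. Its group means lay between -0.30 at 0 min and 0.46 at 30 min in WT, and between -0.39 at 0 min and 0.39 at 30 min in 4P. All 4 courses were highest at 30 min on the loess ratios. The 30 min values were 0.54 and 0.38 in WT and 0.43 and 0.34 in 4P. The 0 min values were -0.20 and -0.40 in WT and -0.22 and -0.56 in 4P, with no overlap between these times, as for 53.6% of all genes in WT and 47.3% in 4P. In the table deposited by the authors no course was highest at 30 min. The values at that time were -0.24 and 0.43 in WT and 0.14 and -0.55 in 4P there. The change was small, 1.69-fold from lowest to highest group mean in WT and 1.71-fold in 4P, and none of its steps between neighbouring times was called. Its calls over time (adjusted p = 0.0357 in WT and 0.0198 in 4P in limma) were lost when arrays were centred on their median in place of loess (adjusted p = 0.382 and 0.111) and with the scanner's own log ratios (0.155 and 0.418). They were also lost without any 1 of 6 WT arrays, both of 0 and 30 min, replicate 2 of 15 min and replicate 1 of 60 min (adjusted p = 0.0528 to 0.163), and without either 4P array of 30 min (0.101 and 0.0613).

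**Figure D1:**
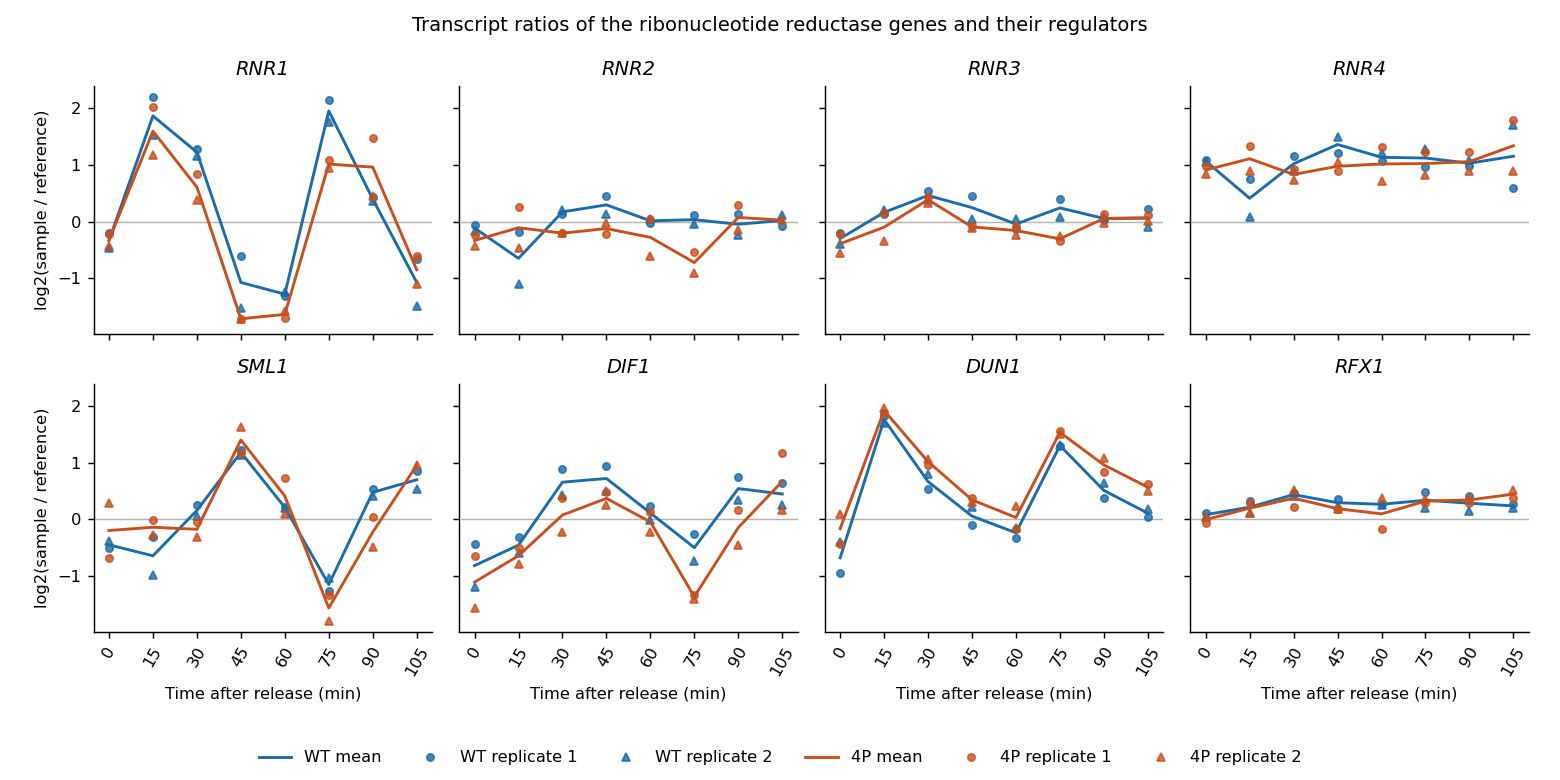
Log2 ratio of sample over reference (y axis) against minutes after release (x axis) for the 8 genes in WT (blue) and 4P (orange), with 1 point per array and lines through the group means. RNR1 and DUN1 were high at 15 and 75 min, SML1 was highest at 45 min and lowest at 75 min, and RNR4 stayed above 0 on all 32 arrays.

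RNR2 and RNR4 encode the small subunit, which is a heterodimer in yeast. RNR2 stayed near the reference. Its 16 WT values ran from -1.11 to 0.45, and the lowest of them was replicate 2 at 15 min, where replicate 1 read -0.19. Change over time was not called for RNR2 in either strain (adjusted p = 0.156 in WT and 0.270 in 4P in limma), although the WT test passed with the replicate number as a block (adjusted p = 0.0354, with 50.2% of all genes called in WT under that fit). One step was called, from 15 to 30 min in WT, with a 1.77-fold rise (0.82, adjusted p = 0.0337). This call was lost without either 30 min array (adjusted p = 0.133 and 0.127) and without replicate 2 of 15 min, where the step was 0.36 (adjusted p = 0.516).

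RNR4 was the only member above the reference on all 32 arrays, with a lowest ratio of 0.08, a median of 1.01 and a highest of 1.78. Its group means were 1.07 at 0 min, 0.41 at 15 min and between 1.02 and 1.36 at the 6 later times in WT. In 4P they lay between 0.83 and 1.34. The lowest value was WT at 15 min, replicate 2, the array that also held the lowest RNR2 value, and replicate 1 at that time read 0.74. Neither strain's change over time was called (adjusted p = 0.300 in WT and 0.883 in 4P), and the replicates' courses were barely correlated over time (r = 0.09 in WT and -0.04 in 4P, n = 8 times).

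SML1, the gene of the inhibitor that binds Rnr1, was lowest at the second peak of RNR1. In WT its ratios at 0 to 105 min were -0.51, -0.30, 0.26, 1.23, 0.22, -1.26, 0.54 and 0.86 in replicate 1. In replicate 2 they were -0.39, -0.98, 0.06, 1.13, 0.20, -1.04, 0.41 and 0.54. In both courses the highest value was at 45 min and the lowest at 75 min. In 4P replicate 2 the 8 ratios were 0.28, -0.27, -0.31, 1.63, 0.10, -1.78, -0.49 and 0.95. In 4P replicate 1 the ratios from 0 to 90 min were -0.67, -0.0034, -0.04, 1.17, 0.72, -1.34 and 0.04, with the 105 min value missing. All 4 courses thus had their highest SML1 value at 45 min and their lowest at 75 min.

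SML1 rose 2.03-fold from 30 to 45 min in WT (1.02 ± 0.28, standard error, adjusted p = 0.0338 in limma) and 2.98-fold in 4P (1.57 ± 0.28, adjusted p = 0.000645). From 60 to 75 min, the step over which RNR1 rose, it changed by -1.36 in WT (adjusted p = 0.00281) and by -1.98 in 4P (adjusted p = 3.83e-05). From 75 to 90 min it rose 3.09-fold in WT and 2.53-fold in 4P, both called. Its change over the whole course had adjusted p = 1.43e-05 in WT and 2.10e-06 in 4P. The 45 min rise in WT was not called on the ratios of the scanner (adjusted p = 0.234) or with the slide as a block (adjusted p = 0.150).

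DIF1, the gene of the protein that takes the small subunit into the nucleus, encodes a relative of Sml1. On the loess ratios it was highest at the same time as SML1 in WT. In WT replicate 1 its ratios at 0 to 105 min were -0.44, -0.31, 0.88, 0.94, 0.24, -0.27, 0.74 and 0.65. In WT replicate 2 they were -1.19, -0.60, 0.43, 0.50, -0.02, -0.73, 0.35 and 0.25. The 2 courses had the same shape (r = 0.97, n = 8 times), with replicate 2 lower at every time. In 4P replicate 1 the ratios were -0.65, -0.50, 0.38, 0.49, 0.12, -1.33, 0.16 and 1.18. In 4P replicate 2 they were -1.56, -0.78, -0.22, 0.25, -0.21, -1.40, -0.45 and 0.16. Here too replicate 2 was lower throughout, so DIF1 read lower in all 16 groups when the dyes were swapped, by a mean of -0.43 in WT and -0.51 in 4P. A dye effect and a difference between cultures cannot be told apart in this offset.

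DIF1 rose 2.16-fold from 15 to 30 min in WT (adjusted p = 0.0231), a step over which SML1 also rose, 1.74-fold (adjusted p = 0.0473, a call lost without any 1 of 17 arrays), and in 4P it changed by -1.32 from 60 to 75 min (adjusted p = 0.0117) and rose 2.33-fold from 75 to 90 min (adjusted p = 0.0390, all in limma). The DIF1 rise in WT was not called without replicate 2 of 15 min or replicate 1 of 30 min (adjusted p = 0.176 and 0.220). The change over the course had adjusted p = 0.00247 in WT and 0.000353 in 4P. From 75 min on, DIF1 on the loess ratios reached its highest value at 90 min in each WT course and at 105 min in each 4P course. In the table deposited by the authors both WT courses were highest at 30 min, at 1.47 and 0.46. There WT replicate 2 read 0.14, -0.66 and 0.25 at 75, 90 and 105 min.

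DUN1, the checkpoint kinase gene, followed RNR1 upward. Its WT ratios at 0 to 105 min were -0.95, 1.82, 0.54, -0.10, -0.33, 1.30, 0.38 and 0.04 in replicate 1. In replicate 2 they were -0.41, 1.70, 0.79, 0.21, -0.15, 1.31, 0.64 and 0.18. On the loess ratios DUN1 was highest at 15 min in all 4 courses and had its second peak at 75 min. In 4P replicate 1 the ratios were -0.43, 1.87, 0.96, 0.38, -0.17, 1.56, 0.83 and 0.63. In 4P replicate 2 they were 0.10, 1.97, 1.07, 0.31, 0.23, 1.51, 1.09 and 0.51. On the loess ratios every 4P value was above the WT value of the same time and replicate. In the table deposited by the authors WT replicate 2 was highest at 75 min, at 2.12 against 1.87 at 15 min. The other courses were highest at 15 min there.

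From 0 to 15 min DUN1 rose 5.43-fold in WT (2.44 ± 0.19, standard error, adjusted p = 2.27e-09 in limma) and 4.25-fold in 4P (2.09 ± 0.19, adjusted p = 2.72e-08). From 60 to 75 min it rose 2.90-fold in WT and 2.83-fold in 4P, both called. From 15 to 30 min it changed by -1.09 in WT and -0.90 in 4P, both called. RNR1's change over that step was -0.64 in WT (adjusted p = 0.183) and -0.99 in 4P (adjusted p = 0.0546), and the genes' steps were not tested against each other.

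RFX1, the gene of the repressor, barely moved. Its 32 ratios ran from -0.18 to 0.52 with a median of 0.28, and 30 of them were above the reference. The range of its group means, 0.35 in WT and 0.45 in 4P, was larger than that of 16.7% and 25.2% of the genes tested. No change over time was called (adjusted p = 0.678 in WT and 0.208 in 4P), and none of its steps or genotype differences was called.

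Between neighbouring times, 16 of the 56 member and step pairs were called in WT and 13 of 56 in 4P, against 8.69% and 8.38% of all gene and step pairs. RNR1, SML1 and DUN1 accounted for 5, 5 and 4 of the WT calls, with 1 each for RNR2 and DIF1. In 4P they were 4, 3 and 4, with 2 for DIF1. With the replicate block the counts were 22 and 22, against 12.5% and 13.2%. No step was called as differing between the strains in any of the 56 pairs, of which 6 had an unadjusted p under 0.05 (smallest adjusted p = 0.602 in limma).

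The members fell into groups by the shape of their courses. Over the 16 group means the correlation of RNR1 and DUN1 was r = 0.79, that of SML1 and DIF1 was 0.81, and that of RNR1 and SML1 was -0.73. Each held within a strain: RNR1 and SML1 gave -0.74 in WT and -0.75 in 4P, and SML1 and DIF1 gave 0.85 and 0.84 (n = 8 times each). For RNR2 and RNR4 r was 0.70 over the 16 means, 0.94 in WT and 0.39 in 4P, and the WT value rests on genes whose change over time was not called and whose lowest mean came from the same time. RNR3 and RFX1 gave r = 0.74. These are descriptions: the points share arrays, reference and time order. Ranked by likeness to SML1 among 6204 genes, DIF1 came at place 37, while ranked by likeness to RNR1, DUN1 came at place 180 and SML1 at place 6009.

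**Figure D2:**
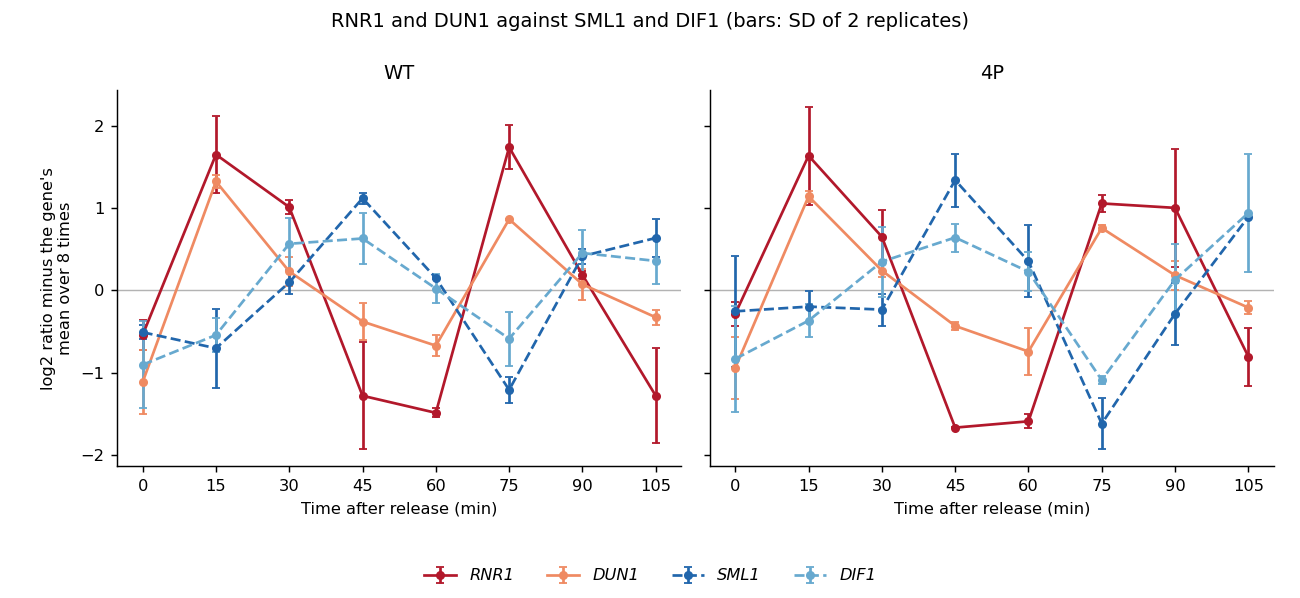
Group means of RNR1 and DUN1 (solid) and of SML1 and DIF1 (dashed), each less its own mean over the 8 times (y axis, log2), against minutes after release (x axis), in WT and 4P, with bars for the SD of 2 replicates (SML1 in 4P at 105 min is 1 array, with no bar). RNR1 and DUN1 were high at 15 and 75 min in both strains, and SML1 was highest at 45 min and lowest at 75 min.

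Outside the set, the genes whose 16 group means most resembled RNR1 were CSI2 (r = 0.98), YBR089W (0.97) and TOS2 (0.97). For DUN1 they were SPC29 (0.98), PBR1 (0.95) and BBP1 (0.95), of which SPC29 and BBP1 encode spindle pole body components. For SML1 they were IST2 (0.94), HIS4 (0.92) and TUB3 (0.91), where TUB3 encodes an alpha-tubulin. For DIF1 they were SIM1 (0.95), FIR1 (0.95) and the kinesin gene KIP3 (0.93). For RNR3 the closest were YPR064W (0.86), MNN2 (0.85) and PHM7 (0.85), so its nearest neighbours were less like it than those of the other 4. Each r is over n = 16 group means.

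Of 32 other genes of deoxyribonucleotide supply and its control, 18 passed the test over time in WT and 14 did so in 4P, against 35.6% and 40.4% of all genes. Among 7 nucleotide enzymes, 4 changed in each strain. The thymidylate synthase gene CDC21 was highest at 30 min with a range of 2.23 in WT and 2.48 in 4P, and the nucleoside diphosphate kinase gene YNK1 was highest at 30 min with a range of 1.43 in WT. CDC8, the thymidylate kinase gene, and DUT1, the dUTPase gene, were highest at 15 min in WT, with ranges of 1.32 and 1.26. Among 7 genes of electron donors and cofactor assembly, 3 changed in WT (TRR1, thioredoxin reductase, GRX4, a glutaredoxin, and TAH18, an electron donor in iron-sulphur protein assembly) and 2 in 4P (GRX4 and TAH18). Thioredoxins TRX1 and TRX2 were not called in either strain.

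Of 6 checkpoint kinases and adaptors, 4 changed in WT and 3 in 4P. RAD53, the kinase that activates Dun1, had the widest range of this group, 2.42 in WT and 2.64 in 4P, with its highest mean at 75 min in WT and 15 min in 4P. MRC1, the replication checkpoint mediator, had ranges of 1.47 and 1.55 and was highest at 75 min in both strains. LCD1, the partner of Mec1 also called DDC2, was called in both strains, and TEL1 in WT only by this threshold, with no test of the difference. MEC1 and RAD9 were not called. Of 3 genes that act on the location of the small subunit, WTM2 changed in each strain and WTM1, the nuclear anchor of Rnr2 and Rnr4, and KAP122, an import receptor, did not pass.

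Among 8 genes that control transcription of the RNR genes, 6 changed in WT and 4 in 4P. SWI4, a subunit of the G1/S factor SBF, was highest at 15 min in both strains, with a range of 2.54 in WT and 2.76 in 4P. NRM1, the co-repressor of MBF, had a range of 1.77 in WT and was highest at 90 min. TUP1, the general co-repressor that acts with Rfx1, was highest at 45 min in both strains with a range of 1.54 in WT and 1.19 in 4P, and IXR1, a factor needed for normal RNR1 expression, had ranges of 1.14 and 1.56. HUG1, a small inhibitor gene related to SML1 and its neighbour on the chromosome in the RefSeq assembly R64, had group means between -0.11 and 0.30, was not called in either strain, and was well above background on 27 of 32 arrays. No genotype difference was called for any of the 32 genes at any time, in 256 gene and time pairs.

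**Figure D3:**
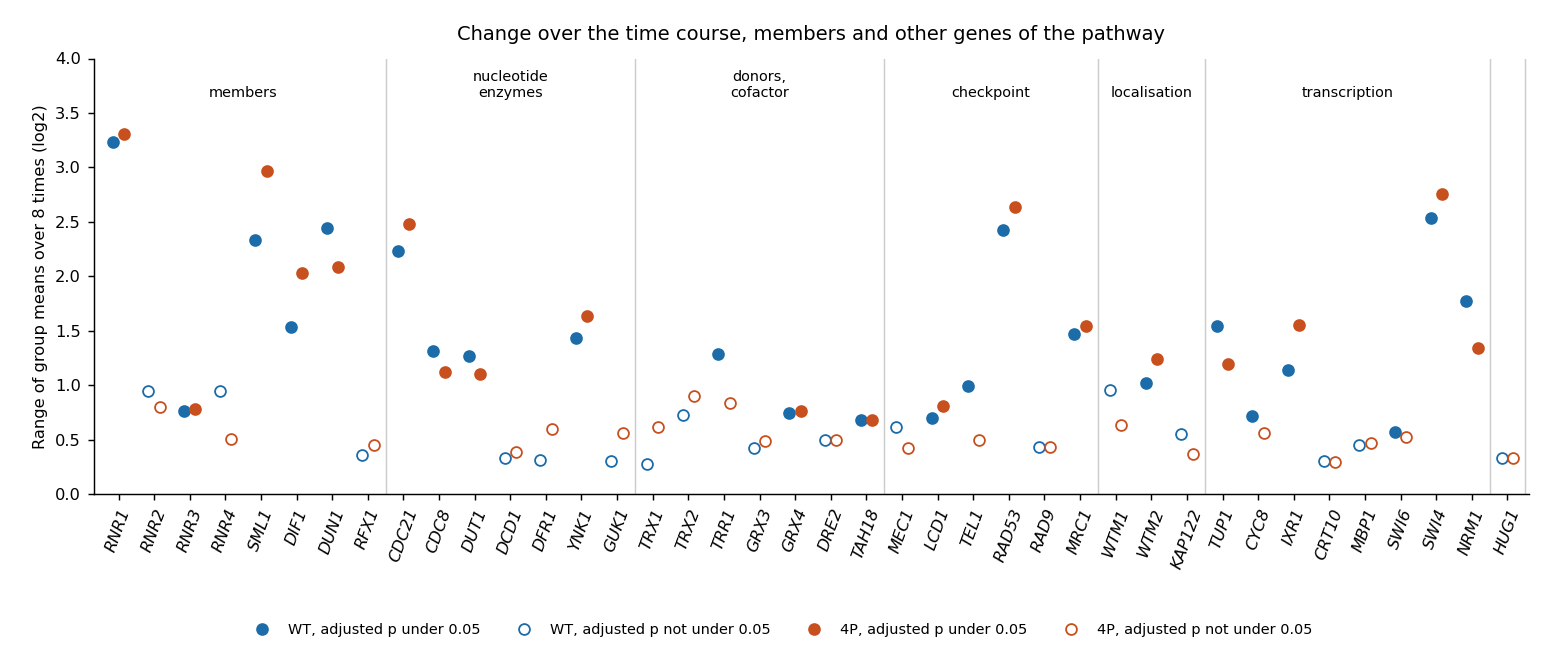
Range of the group means over the 8 times (y axis, log2) for the 8 members and 32 other genes of the pathway, grouped by role along the x axis with HUG1 last, in WT (blue) and 4P (orange). Filled points had an adjusted p under 0.05 over time, and RNR1 had the widest range in each strain, 3.23 and 3.31.

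Between the strains, no member was called at any time. The test over all 8 times together called 0 of the 8 (limma moderated F, adjusted over all genes), against 5.04% of all genes, with 2 members at an unadjusted p under 0.05, RNR1 (adjusted p = 0.243) and DUN1 (adjusted p = 0.0944). The test of a difference that varies with time called 0 of 8, none of them at an unadjusted p under 0.05, against 0.0806% of all genes. At single times 0 of 64 member and time pairs were called, against 0.79% of all gene and time pairs. At an unadjusted p under 0.05 there were 9 of the 64, against 10.4% of all pairs. The fit with the replicate number as a block takes out the offset between the dye orientations. Over all times together it called RNR1 (adjusted p = 0.0156, limma moderated F), DIF1 (0.00256) and DUN1 (0.0105), against 16.2% of all genes. At single times it called 4 of the 64 pairs, all at 75 min. Of all 6205 genes it called 1000 (16.1%) at 75 min and 8 to 89 at each other time.

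**Figure D4:**
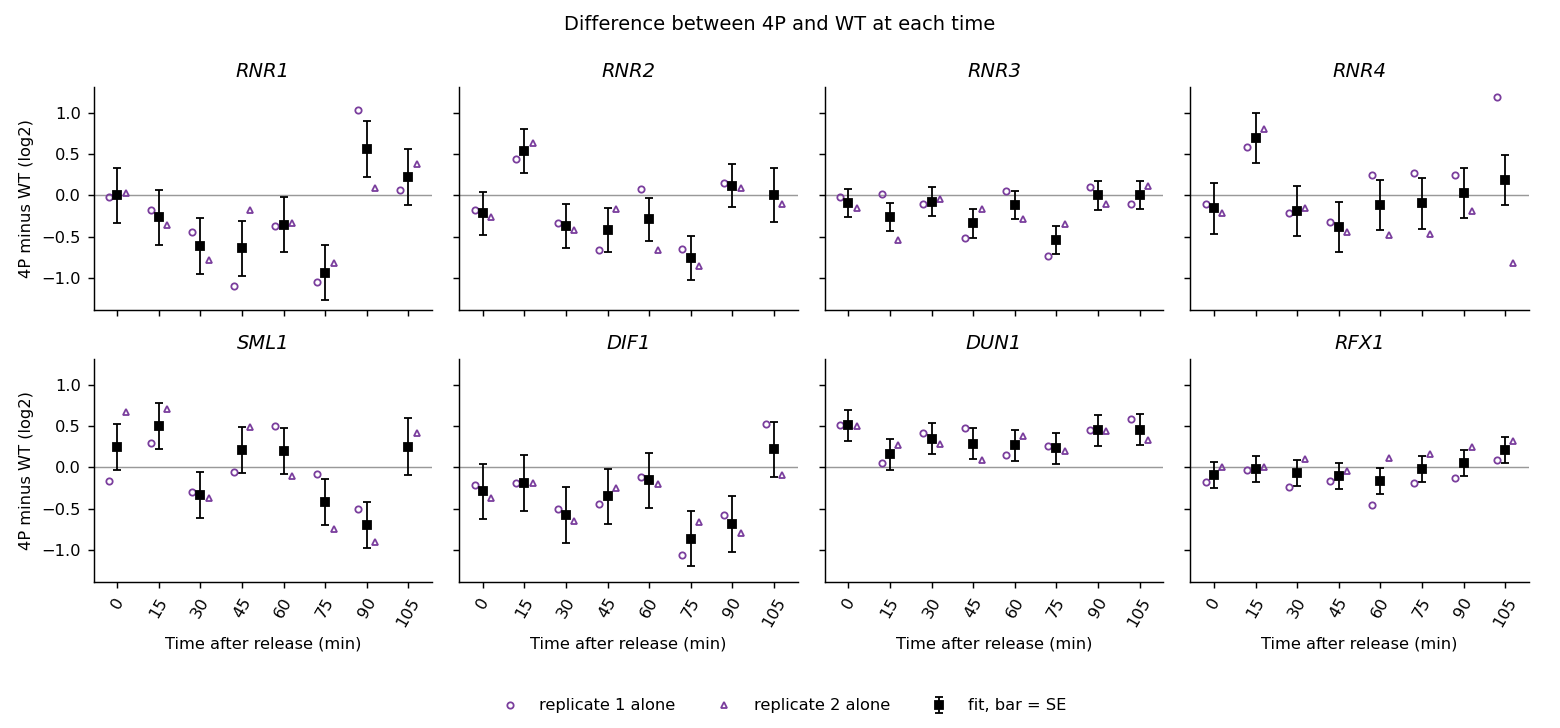
4P minus WT (y axis, log2) against minutes after release (x axis) for the 8 genes, with squares for the fitted difference and bars for its standard error, and open points for each replicate alone. All DUN1 points lie above 0, and at 75 min both replicates of RNR1, RNR2, RNR3, SML1 and DIF1 lie below 0.

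At 75 min, when RNR1 peaked for the second time in WT, RNR1 read 2.14 and 1.76 in WT and 1.09 and 0.94 in 4P. The 4P value was lower in both replicates, with a difference of -0.94 ± 0.34 (standard error, adjusted p = 0.0983 in limma, 0.0117 with the replicate block). RNR2 read 0.11 and -0.05 in WT and -0.54 and -0.91 in 4P, a difference of -0.76 ± 0.27 (adjusted p = 0.0944, 0.0227 with the block). The groups did not overlap for either gene, as for 57.9% of all genes at 75 min. RNR3 read 0.39 and 0.09 in WT and -0.35 and -0.26 in 4P, a difference of -0.55 ± 0.17 (adjusted p = 0.0636, 0.0137 with the block). DIF1 read -0.27 and -0.73 in WT and -1.33 and -1.40 in 4P, a difference of -0.87 ± 0.34 (adjusted p = 0.123, 0.00359 with the block). These 2 genes did not overlap between strains either. In the fit without the block none of the 4 passed, with the block all 4 did, and all 4 also passed without the block when arrays were weighted by their quality (adjusted p = 0.0289 for RNR1, 0.0234 for RNR2, 0.0161 for RNR3 and 0.0442 for DIF1, against 15.1% of all genes called at 75 min and 6.54% called as lower in 4P).

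Other genes were called at that time too, in numbers that rested on single arrays. Without the block 4.98% of all genes were called at 75 min, and 23.8% had an unadjusted p under 0.05, while with the block 16.1% were called and 7.03% were called as lower in 4P. The 309 genes called without the block became 1 without WT replicate 1 of 75 min, 74 without WT replicate 2, 17 without 4P replicate 1 and 10 without 4P replicate 2. The median difference over all genes at 75 min was 0.00 and over the 8 members -0.48. The other 4 members had adjusted p of 0.384 or more at 75 min, with SML1 at -0.41, RNR4 at -0.10, RFX1 at -0.02 and DUN1 at 0.23.

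The 75 min values also moved with the starting values and with the slide. On the scanner's own log ratios RNR1 differed by -0.48 and RNR3 by -0.01, with neither called, RNR2 differed by -0.76 (adjusted p = 0.0981), and DIF1 differed by -1.63 and was called (adjusted p = 0.0177). With the slide as a block none of the 4 was called, at -1.12 for RNR1 (adjusted p = 0.182), -0.73 for RNR2 (0.388), -0.58 for RNR3 (0.241) and -0.48 for DIF1 (0.449). Slide and strain coincide at 75 min, where no slide held both, so they cannot be told apart by direct comparison at that time. A slide held both strains at 1 time and replicate only, 45 min in replicate 1, where 4P minus WT was -1.10 for RNR1, -0.67 for RNR2, -0.52 for RNR3, -0.45 for DIF1 and 0.48 for DUN1. Across slides, the same differences in replicate 2 were -0.18, -0.17, -0.16, -0.25 and 0.10. For RNR4 and RFX1 the pairs were -0.32 and -0.45, and -0.17 and -0.04, while SML1 turned sign, from -0.06 within the slide to 0.49 across slides.

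**Figure D5:**
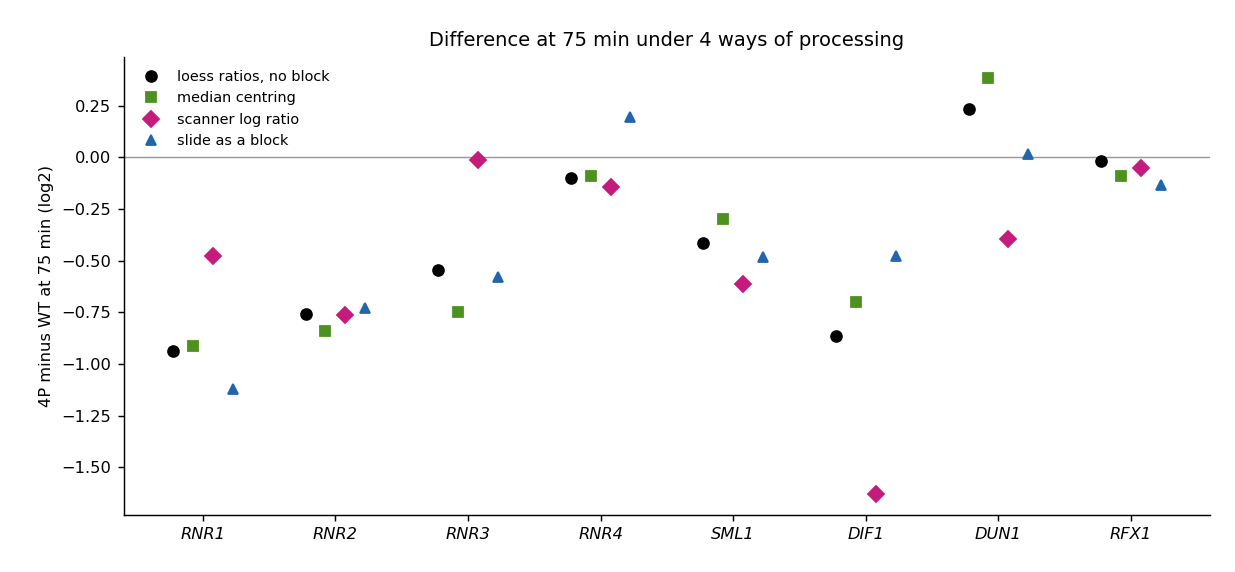
4P minus WT at 75 min (y axis, log2) for the 8 genes (x axis), with 1 point for each of 4 ways of processing the same arrays. RNR1 ran from -1.12 to -0.48, RNR3 was near 0 on the scanner's log ratios, and DUN1 was below 0 with those ratios alone.

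Markers of the G1/S and S-phase stages, none of them called at 75 or 90 min, are given beside these genes. For CLN2, a G1 cyclin gene, 4P minus WT was -0.86 at 75 min (adjusted p = 0.0538 in limma) and 0.30 at 90 min. For CLB6, an S-phase cyclin gene, it was 0.25 and 0.76, for the histone gene HTA1 -0.40 and -0.03, and for the histone gene HTB1 -0.44 and 0.32. At M/G1, ASH1 group means at 60 and 75 min were 1.57 and -0.29 in WT and 0.52 and 0.53 in 4P. Those of SIC1 were 1.15 and 0.93 in WT and 0.33 and 1.23 in 4P. This list and the mitosis list (CLB2 and CDC20) each held 1 called difference, at times other than 75 and 90 min. FUS1, a marker of pheromone arrest, was called at 75 min (0.71, adjusted p = 0.0430 in limma). AGA1, the other pheromone-arrest marker listed, went the other way: it was lower in 4P at 75 min and was not called. RNR1 showed the same order as CLN2, at -0.94 at 75 min and 0.56 at 90 min, and the 90 min difference was 1.03 in replicate 1 and 0.09 in replicate 2. Of 15 other genes of DNA replication that are expressed at G1/S as RNR1 is, 9 were lower in 4P at 75 min, with a median difference of -0.20, against 49.9% of all genes, and 15 were higher at 90 min, with a median of 0.48, against 52.3% of all genes. Of the 15, 1 was called at 75 min and 0 at 90 min, against 4.98% and 0.0322% of all genes. Over all times together 4 of the 15 were called between the strains (limma moderated F), against 5.04% of all genes. Change over time was called for 15 in WT and 14 in 4P, against 35.6% and 40.4% of all genes. The part that the timing of the second cycle has in the RNR1 difference was not tested.

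DUN1 was higher in 4P at all 8 times and in all 16 comparisons of a time and replicate. The fitted differences ran from 0.16 at 15 min to 0.51 at 0 min and averaged 0.34. None was called at a single time (smallest adjusted p = 0.437 in limma), and those at 0, 90 and 105 min had an unadjusted p under 0.05. A fitted difference above 0 at all 8 times was found for 8.28% of all genes, so that pattern of fitted signs was not rare. The share of genes above 0 in all 16 comparisons was not counted.

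For the mean of each whole course, DUN1 read 0.34 and 0.54 in WT and 0.70 and 0.85 in 4P, with no overlap, as for 43.9% of all genes with a value on every array. The difference was 0.34 ± 0.12 (standard error, n = 2 courses a strain, adjusted p = 0.444 in limma), and 0 of 8 members was called, with DUN1 alone at an unadjusted p under 0.05, against 0.0161% of all genes. With the replicate block DUN1 (adjusted p = 0.0267) and DIF1 (-0.36, adjusted p = 0.0232) were called and RNR1 was not (-0.25, adjusted p = 0.0557), against 10.5% of all genes. The DUN1 difference was below 0 at 75 min with the scanner's log ratios (-0.40) and below 0 at 15 min with the slide as a block (-0.16), and with the slide as a block its mean over the 8 times was 0.11.

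RNR4 and SML1 each had 1 further difference at an unadjusted p under 0.05. RNR4 at 15 min read 0.74 and 0.08 in WT and 1.33 and 0.88 in 4P, a difference of 0.70 ± 0.31 (adjusted p = 0.298 in limma). SML1 at 90 min read 0.54 and 0.41 in WT and 0.04 and -0.49 in 4P, a difference of -0.70 ± 0.28 (adjusted p = 0.641). Neither pair of groups overlapped, as for 34% of all genes at 15 min and 37.3% at 90 min, and neither difference was called. For RFX1 all differences lay between -0.17 and 0.21, and the 95% interval at 75 min ran from -0.34 to 0.31.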

How the data were processed

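The 8 genes, the lists beside them and the tests were chosen with earlier results of these data known. The submitters' processing notes name Agilent Feature Extraction 10.7.1.1 for the array files, which hold median signal and background intensity per channel, flags and a log10 ratio, per the file headers. The table deposited by the authors holds log2 values, sample over reference by comparison with the scanner ratios (r = 0.961 to 0.999 per array). Its normalisation and centring are not given in the sources used here.

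Median intensities were background-corrected with normexp (offset 50) and loess-normalised within arrays in limma 3.58.1 (R 4.3.3), with weight 0 for control spots and for spots marked as outliers. The latter were left out, and the 2 spots of each probe and the probes of each gene were averaged. Each member has 1 probe. Probes had to be well above background in the sample channel on both arrays of at least 1 group. One linear model over 32 arrays (16 groups of 2) gave all contrasts, adjusted by Benjamini-Hochberg over 6205 genes at 0.05. A fit of course means used 4 time courses, without 4P replicate 1 for RNR2 and SML1. The number of arrays limits the precision. On simulated data with independent noise on each array, 75% of log2 changes of 1 and 100% of those of 2 were recovered at 75 min. The simulation left out deviations shared by same-numbered samples and took genes of any spread. At 75 min the median standard error was 0.19 over all genes and was 0.34 for RNR1 and DIF1, so these shares do not describe the members.

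The replicate number marks the time course within a strain and the dye orientation across strains, per the series design. Same-numbered samples of 2 groups deviated together with a median r of 0.38 within a strain (52 of 56 group pairs over 0.1) and 0.26 across strains (54 of 64). Blocked values are therefore printed where they change a call. The 5 slides are named by the barcodes in the files; a slide held mostly 1 strain.

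All 8 members are given. For the 6 roles of other pathway genes the counts of change over time are given, and for the marker and replication lists only the counts stated above. Other pathway genes past the test were named up to 4 per role by adjusted p, others by role, and the 3 genes most like each member that changed in WT by correlation. The array's annotation uses an older build than the RefSeq table, so no coordinates are given, and promoter motifs were not analysed here.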

Additional observations from a re-analysis of the deposited data

How the results depend on the processing

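The count of members that changed over time, 5 in each strain, stayed within 1.5 times under every alternative run, and without 1 array at a time it was 4 to 6 in each strain. Members differing at any time, 0 in the main analysis, numbered 1 with the authors' table and with array weights (DUN1 in each), 3 with the replicate block and 3 with a block within each strain, and 0 to 1 without 1 array (DUN1 without the 0 min array of 4P replicate 1 or WT replicate 2). Member and time pairs, 0 in the main analysis, numbered 1 with the scanner's ratios, 1 with the authors' table (DIF1 at 75 min in each), 4 with array weights and 4 with either block (RNR1, RNR2, RNR3 and DIF1 at 75 min in each), 1 without slide 1 (RNR3) and 0 to 1 without 1 array (RNR2 at 15 min, 1.00, without the WT array of replicate 1; RNR3 at 75 min without either 4P array of 15 min). No difference depended on time without any 1 array (0). Called steps were 22 in 4P with either block, and 10 in WT when probes needed a value above background on every array, which leaves out RNR2 and SML1 for the 1 outlier-marked value each lacks; without 1 array they were 11 to 17 in WT and 10 to 17 in 4P. Course means gave 2 calls with the replicate block. DUN1 reversed at 75 min with the scanner's ratios (-0.397) and in the authors' table (-0.395), and at 15 min with the slide as a block (-0.160); the cause was not tested. Apart from added steps, the replicate block changed no call of a member other than those given beside their results. Leaving out 1 array also brought RNR2 in WT (adjusted p = 0.0227 without 15 min replicate 1) and RFX1 in 4P (0.0341 without 60 min replicate 2) past the threshold over time, and SML1's WT steps from 15 to 30 min and 45 to 60 min were lost without any 1 of 17 and 12 arrays. SML1's WT step from 30 to 45 min was lost without any of its 4 arrays, and DIF1's 4P steps from 60 to 75 and 75 to 90 min without any 1 of 3. Over single member values, 809 of 863 under other settings and 2069 of 2144 without 1 array kept their direction and their side of the threshold. Genes called at 75 min numbered 309 in the main analysis, 821 with the scanner's ratios, 853 with the authors' table, 938 with array weights, 1000 with the replicate block, 6 with the slide as a block, 101 with median centring, 196 with a normexp offset of 10 and 493 without slide 1. Genes differing at any time numbered 313, and 78, 96, 762, 1004, 23 and 194 under the first 6 of these alternatives in turn, and 374 without slide 1. The block within each strain, the slide 1 setting and the keeping of outlier-marked spots were chosen after seeing the data. Probes singly could not be tried, as each member has 1, and array weights, the slide block and single-array omission were not run on course means, which gave 0 calls without any 1 of the 4 time courses.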
